A study of Mus musculus with 8 samples.

Results

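Malat1, Neat1, Miat and Snhg11 were followed in the hippocampus of 8 adult male mice as 4 long noncoding RNAs that earlier work describes as abundant and largely nuclear. They were taken from the deposited count table by gene symbol, and made up 4 of its 24527 rows. They were chosen by name as abundant RNAs with their counts in these libraries known, and Malat1 had already been called by DESeq2 in a comparison that held library depth as a covariate. Their levels, their group differences and their relation to depth are therefore given as a description.

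All mice were C57BL/6J, Wild-type and 20 weeks old. The 4 control males came from mothers fed a low phytoestrogen diet with 0 mg of BPA per kg during gestation and lactation, and the 4 BPA males from mothers fed that diet with 50 mg of BPA per kg. BPA (bisphenol A) is a building block of polycarbonate plastic with weak estrogenic activity. Every animal was on control diet from weaning at postnatal day 21, so exposure had ended long before sampling, and the groups share diet base, strain, sex and age. Polyadenylated RNA of whole hippocampus was sequenced, so fewer cells of a type and less RNA per cell cannot be told apart, and RNA in the nucleus was not measured separately. The series describes the animals as independent biological replicates, and litters are not stated. Errors of group differences are model estimates based on the spread between these animals.

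Long noncoding RNAs of this kind act as RNA and not through a protein. Malat1 gathers in nuclear speckles, the stores of splicing factors, and Neat1 is the scaffold on which paraspeckles are built. Miat, also called Gomafu, forms separate spots in neuronal nuclei and binds splicing factors, and Snhg11 is a neuronal transcript whose introns carry small nucleolar RNAs. Malat1 and Miat are both known for high expression in neurons.

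Malat1 lay on chromosome 19 (mm10/GRCm38, minus strand, 5795690 to 5802672), with a single-exon main transcript of 6983 bases. Neat1 lay on the same strand, 22035 bases away (5824708 to 5845478). Its long transcript of 20771 bases had 1 exon and its short one 3004 bases. Miat was on chromosome 5 (minus strand, 112213228 to 112229395; longest transcript 9163 bases in 7 exons) and Snhg11 on chromosome 2 (plus strand, 158375638 to 158386145; 5864 bases in 5 exons). GENCODE lists Snhg11 as protein coding and RefSeq lists it as a long noncoding RNA. The predicted genes Gm37376 and Gm26953 overlap Malat1 and Miat on the opposite strand; neither is a row of the table. No source used here states the strand setting of the counting, so antisense reads in the counts of Malat1 and Miat cannot be told apart.

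How these RNAs end bears on a library made from polyadenylated RNA, because the mature ends of Malat1 and of long Neat1 are known to be made by RNase P cleavage and to carry a genome-encoded A-rich tract in place of a poly(A) tail. These stretches of the GENCODE transcripts are shown for that reason, Malat1 at chr19:5795972-5796075 and Neat1 at chr19:5824708-5824807, both minus strand, with 3 motifs in capitals. AAAAAGCAAAA was taken as the last 11 bases of long Neat1, TTTTGCTTTT as the reverse complement of its last 10 bases, and TTTCTTT is a shorter U-rich run that does not overlap the others; all were searched on the transcript strand only.
Malat1: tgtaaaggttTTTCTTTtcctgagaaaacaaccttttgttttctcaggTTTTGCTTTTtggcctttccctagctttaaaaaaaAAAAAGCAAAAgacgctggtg
Neat1: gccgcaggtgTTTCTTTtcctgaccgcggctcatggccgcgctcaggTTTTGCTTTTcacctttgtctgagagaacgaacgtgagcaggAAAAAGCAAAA
Both held TTTTGCTTTT followed by AAAAAGCAAAA, each once in the transcript, in Neat1 by construction for the A-rich motif. The tract closed the long Neat1 transcript, with 0 bases after it, whereas the Malat1 gene model ran on for 292 bases to an end with an AATAAA polyadenylation signal 16 bases before it. The short Neat1 transcript had AATAAA 14 bases before its end and 0 copies of AAAAAGCAAAA. Among 4189 genes whose longest transcript had at least 5000 bases, 2.79% held AAAAAGCAAAA anywhere, 0.239% held it in the last 500 bases, 6.18% held TTTTGCTTTT and 76.9% held TTTCTTT. Snhg11 held 1 copy of AAAAAGCAAAA, 945 bases from its end. The counts are per gene, so neither the 2 Neat1 forms nor the alternative ends of Malat1 were separated.

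Miat carries repeats of TACTAAC, the sequence that the branch point binding protein SF1 recognises. Its longest transcript held 6 copies, all in exon 7, and they are shown in capitals in chr5:112217309-112217460 and chr5:112216752-112216812 (minus strand).
Miat upstream copies: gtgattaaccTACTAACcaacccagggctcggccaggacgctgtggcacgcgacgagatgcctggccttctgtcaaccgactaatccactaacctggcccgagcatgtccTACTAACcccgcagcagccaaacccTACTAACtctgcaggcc
Miat downstream copies: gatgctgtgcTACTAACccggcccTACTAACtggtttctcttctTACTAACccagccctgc
Of the 4189 long transcripts, 16.8% held TACTAAC at least once and 0.0477% held 6 or more; Miat ranked 2 by copies. The Malat1 and Snhg11 transcripts held 0 copies and long Neat1 held 1. A match describes these letters only.

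The name abundant fitted the members unevenly. Malat1 held 0.155 ± 0.0257% of all counts (mean ± SD over 8 libraries) and ranked 20 to 47 among the rows of the table. Snhg11 held 0.0304 ± 0.00527% and ranked 388 to 809, and Miat held 0.0114 ± 0.00173% and ranked 1498 to 2432. Neat1 held 0.00369 ± 0.000860% and ranked 3854 to 5970, so it was not among the abundant transcripts of these libraries. Counting alone gave each share a 95% Wilson interval of at most ± 1.03% of its value for Malat1, 2.27% for Snhg11, 3.99% for Miat and 6.71% for Neat1; the differences between animals were larger.

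Per kilobase of the longest transcript the order was the same. Malat1 stood at 221 ± 35.2 CPM per kb (CPM, counts per 1e+06 counts with TMM scaling, an adjustment for library composition) and ranked 124 among 15074 tested genes with a known length. Snhg11 stood at 51.7 ± 8.53 CPM per kb (rank 973), Miat at 12.4 ± 1.65 (rank 4392) and Neat1 at 1.77 ± 0.378 (rank 10636). If all Neat1 reads came from the short form, its level would be 12.3 ± 2.62 CPM per kb, close to that of Miat, and the counts do not say which length applies. The ranges of Malat1, Snhg11 and Miat did not overlap over the 8 libraries (186 to 284, 39.8 to 65.9 and 10.1 to 15.4 CPM per kb).

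Malat1 varied mainly among the controls. It was at 1981, 1864, 1385 and 1367 CPM in control replicates 1 to 4, and at 1298, 1517, 1443 and 1496 CPM in BPA replicates 1 to 4. Control replicates 1 and 2 stood above the other 6 libraries, control replicates 3 and 4 lay within the BPA range, and the groups overlapped. Controls averaged 1649 ± 319 CPM and BPA mice 1438 ± 98.5 CPM (SD, n = 4 each). The log2 fold change was -0.20 ± 0.11 (SE), or 0.872-fold (95% interval 0.741 to 1.03).

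Snhg11, the snoRNA host, followed Malat1 in the controls but not in the BPA mice. Its levels were 386, 366, 274 and 285 CPM in control replicates 1 to 4 and 308, 290, 233 and 283 CPM in BPA replicates 1 to 4. Control replicates 1 and 2 were again the 2 highest of the 8, and BPA replicate 3 was the lowest; BPA replicate 1, the lowest library for Malat1, was the highest BPA library for Snhg11. Controls averaged 328 ± 56.5 CPM and BPA mice 279 ± 32.1 CPM, which is a log2 difference of -0.24 ± 0.11 (fold 0.849, 95% interval 0.717 to 1.01).

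Miat, the RNA with the SF1 repeats, was at 124, 141, 109 and 92.1 CPM in control replicates 1 to 4 and at 123, 110, 103 and 107 CPM in BPA replicates 1 to 4. The highest and the lowest library were both controls, replicates 2 and 4, and all BPA values lay between them. Controls averaged 117 ± 20.9 CPM and BPA mice 111 ± 8.50 CPM, which is a log2 difference of -0.079 ± 0.10 (fold 0.947, 95% interval 0.809 to 1.11).

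Neat1, the paraspeckle scaffold, rested on 854 to 2019 counts per library. It was at 35.1, 53.8, 27.6 and 35.8 CPM in control replicates 1 to 4 and at 40.0, 30.2, 36.2 and 35.8 CPM in BPA replicates 1 to 4. Control replicate 2 was the highest library and control replicate 3 the lowest, and control replicate 1, the top library for Malat1, was near the middle. Controls averaged 38.1 ± 11.1 CPM and BPA mice 35.6 ± 4.03 CPM, which is a log2 difference of -0.10 ± 0.16 (fold 0.930, 95% interval 0.734 to 1.18).

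**Figure D1:**
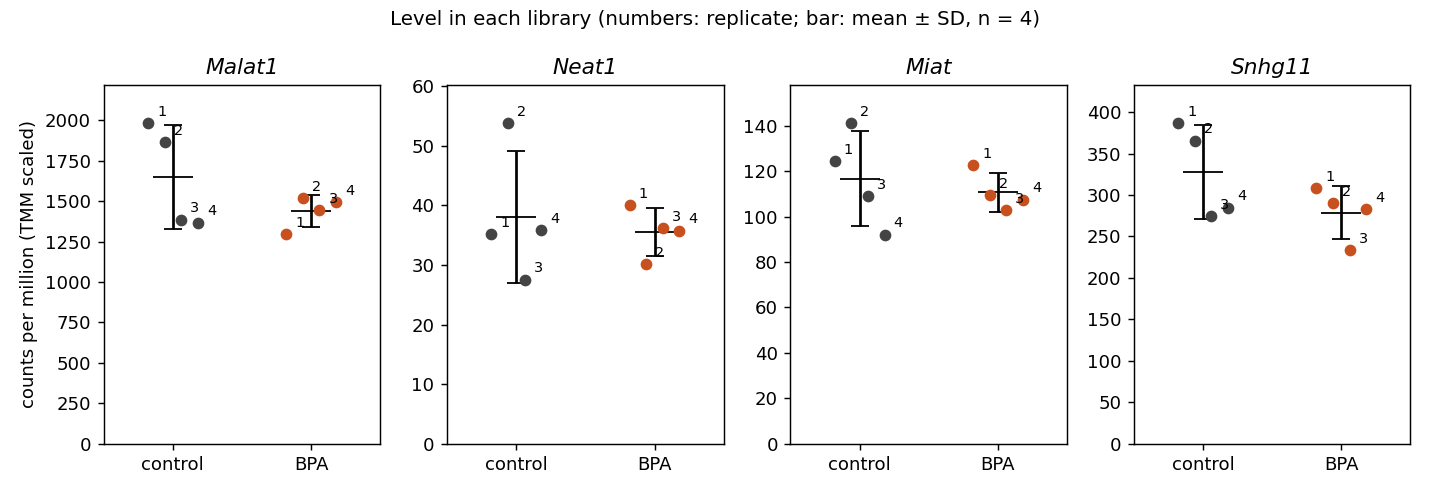
Level of each long noncoding RNA in CPM (y axis, from 0) in the 4 control and 4 BPA libraries (points, numbered by replicate), with mean and SD as bars. Control replicates 1 and 2 are the 2 highest libraries for Malat1 (1981 and 1864 CPM) and Snhg11 (386 and 366 CPM), while for Neat1 only control replicate 2 stands out (53.8 CPM).

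None of the 4 passed the comparison of BPA with control across the whole table. Of 15434 genes tested with the quasi-likelihood test of edgeR, 0 had an adjusted p under 0.05 (0%). At an unadjusted p under 0.05 there were 698 genes (4.52%), 355 of them lower in BPA mice (2.3%), and limma-voom and DESeq2 without the filter on low counts called 0 and 7 genes; 0 of the 4 members were in any of these counts. The 698 became 354 without BPA replicate 2 and 1167 without control replicate 3. Groups did not overlap for 431 genes (2.79%) and for 0 of the 4 members. The log2 fold change was below 0 for all 4 members and for 50% of all genes, from which nothing is read, since the members were chosen with such values known. The 95% intervals from edgeR allow a fold as low as 0.717 for Snhg11 and 0.734 for Neat1. They allow a fold as high as 1.18 for Neat1 and 1.11 for Miat. The SE of the log2 fold change depended on the method. In DESeq2 it was wider for Malat1 (0.147), Snhg11 (0.149) and Neat1 (0.217), and it was 0.103 for Miat.

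Single animals set much of these values. Without control replicate 1 the log2 fold change of Malat1 was -0.097 and that of Snhg11 -0.15, and without control replicate 2 that of Neat1 was 0.11 and that of Miat 0.026, on the other side of 0. Neat1 was at -0.23 without control replicate 3, -0.17 without BPA replicate 1 and -0.032 without BPA replicate 2. Miat was at -0.047 without control replicate 1, -0.18 without control replicate 4, -0.13 without BPA replicate 1 and -0.046 without BPA replicate 3. Malat1 and Snhg11 stayed below 0 whichever 1 library was left out.

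**Figure D2:**
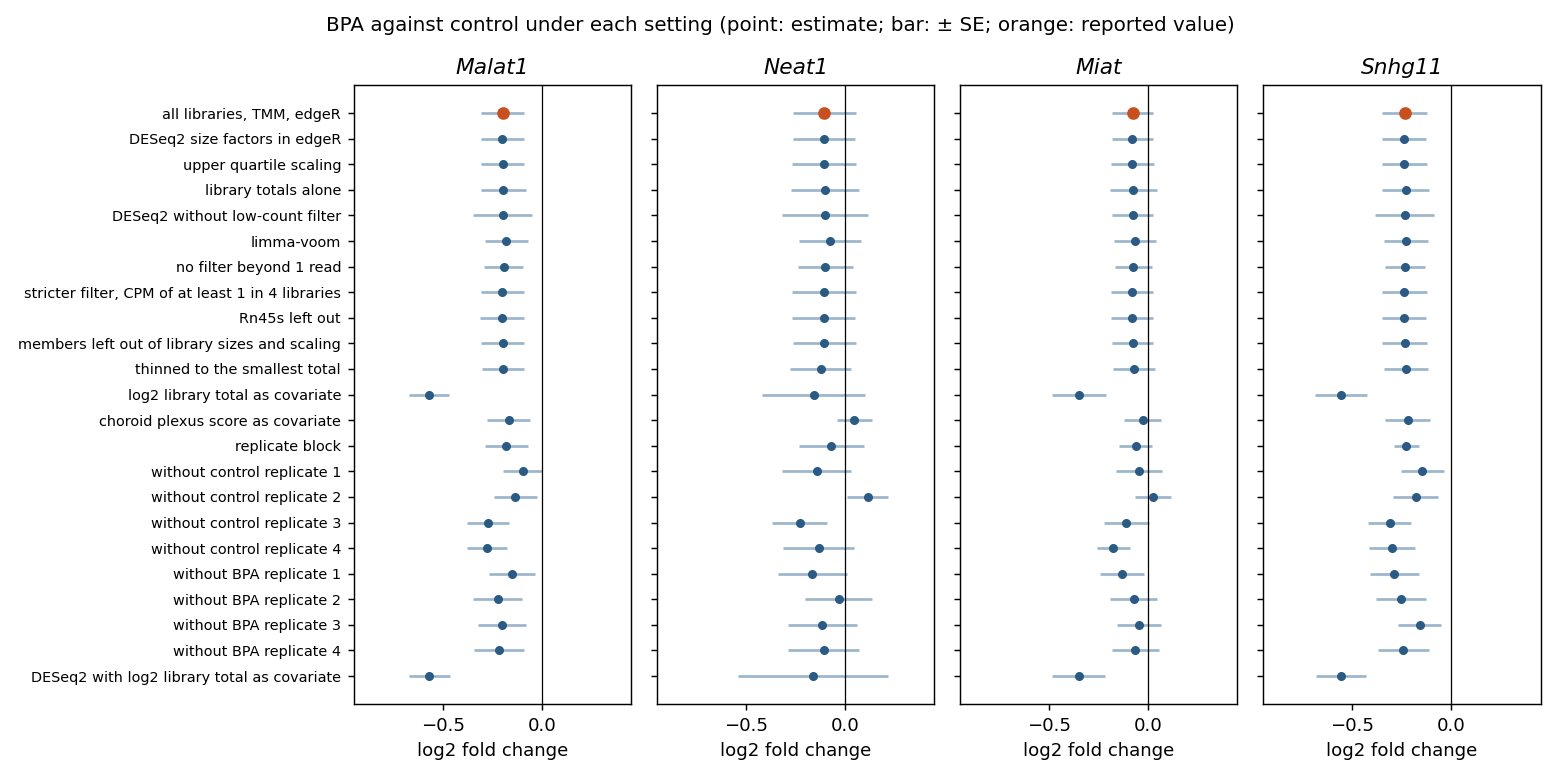
Log2 fold change of BPA against control (x axis) for each RNA, with 1 row for each way of computing it, shown as estimate and SE; the reported value is orange. Malat1 and Snhg11 lie left of 0 in every row, Neat1 crosses 0 without control replicate 2 (0.11) and with a choroid plexus covariate (0.048), and Miat without control replicate 2 (0.026).

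The spread among controls was itself wide. The coefficient of variation (SD as a percentage of the mean CPM) was 19.3% for Malat1, 29.2% for Neat1, 17.9% for Miat and 17.2% for Snhg11 in controls, where the median of 9205 genes with a mean of at least 10 CPM was 5.69%. Those values exceeded the ones of 98.5%, 99.6%, 98.1% and 97.9% of these genes. In BPA mice the coefficients were 6.85%, 11.3%, 7.68% and 11.5% against a median of 4.80%. They exceeded the ones of 75.1%, 94.7%, 81.5% and 94.9% of these genes, so the spread was above the median in both groups. All 4 were thus more even in BPA mice than in controls, as were 60.2% of the genes; with 4 animals a group this difference in spread was not tested.

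The members moved together only in part. Over the 8 libraries, Pearson's r of log2 CPM was 0.769 for Malat1 with Snhg11, 0.753 for Miat with Snhg11, 0.639 for Malat1 with Miat, 0.608 for Neat1 with Miat, 0.466 for Neat1 with Snhg11 and 0.401 for Malat1 with Neat1. These libraries share depth, composition and control replicates 1 and 2, and Snhg11, the member closest to Malat1, ranked 116 among 9204 genes by this measure. The ratio of Malat1 to Snhg11 in CPM was 5.02 ± 0.149 in controls and 5.23 ± 0.808 in BPA mice (SD, n = 4 each), so in controls the pair kept a nearly fixed proportion while both varied. The ratio of Malat1 to Neat1, whose genes are neighbours, ranged from 32.5 to 56.4.

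Among the genes closest to Malat1 by r were Gxylt1 (0.920), Cux2, a transcription factor of upper-layer cortical neurons (0.917), Prkdc, the catalytic subunit of DNA-dependent protein kinase (0.906), and Ric1 (0.905). Those closest to Snhg11 were Abcc5, an export transporter (0.960), Meg3, an imprinted long noncoding RNA (0.951), Nek9 (0.924), Ndrg1 (0.919) and Tmem19 (0.917). For Miat they were Top3b, a topoisomerase that also acts on RNA (0.962), Vars2 (0.951) and Lrrc45 (0.944). They also included 1 gene with a RIKEN clone symbol, and Pnisr, a splicing-related nuclear protein (0.930). For Neat1 they were Zfp386 (0.957), Tmem237 (0.954), Tmem63a (0.951), Ankrd24 (0.938) and Pfkfb2, an enzyme that controls glycolysis (0.938). No gene was among the 5 closest to more than 1 member, and the values are a description over 8 libraries and 9204 genes.

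Neighbouring genes differed in how far they followed the members. Frmd8, 4223 bases beyond Neat1, averaged 9.88 ± 0.407 CPM (controls) and 9.28 ± 0.740 CPM (BPA), with a log2 fold change of -0.094 ± 0.075 (SE; r with Neat1 0.473). Beside Snhg11 lay Snhg17, another snoRNA host (log2 fold change -0.22 ± 0.12; r with Snhg11 0.595), and Ralgapb, a subunit of a Ral GTPase activating complex (-0.071 ± 0.041; r with Snhg11 0.300). The neighbours of Miat were the crystallin gene Cryba4 and a gene with a RIKEN clone symbol. They had 50 and 1 reads in the 8 libraries together and were too low to test.

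Depth differed between the groups, which bears on each of these values. Control totals were 27135071 to 40793192 counts and BPA totals 43119986 to 54013884 counts, with no overlap, so exposure and depth cannot be told apart between groups. Within controls, Malat1 followed the totals in order: control replicates 4, 3, 2 and 1, from the shallowest to the deepest, were at 1367, 1385, 1864 and 1981 CPM. Within BPA mice the order was not kept throughout: replicates 3, 1, 4 and 2, again from shallowest to deepest, were at 1443, 1298, 1496 and 1517 CPM. Replicates 3, 1 and 4 had nearly equal totals (43119986, 43572542 and 44002785 counts), so their order says little about depth. Replicate 2, at 54013884 counts, had the highest Malat1 level of the group. The deepest control, at 40793192 counts, had 1981 CPM of Malat1, and the shallowest BPA library, at 43119986 counts, had 1443 CPM.

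With group in the model, the slope per log2 unit of the library total was 0.85 ± 0.18 on the log2 scale for Malat1, 0.73 ± 0.23 for Snhg11, 0.62 ± 0.24 for Miat and 0.13 ± 0.47 for Neat1, against a median of -0.0018 over all genes. Leaving out 1 library gave slopes of 0.76 to 1.03 for Malat1 and 0.63 to 0.90 for Snhg11. The slope of Miat was 0.25 without control replicate 4. That of Neat1 changed sign: it was -0.22, -0.13 and -0.018 without control replicates 2, 3 and 4, and 0.45, 0.20 and 0.55 without control replicate 1, BPA replicate 1 and BPA replicate 2. For the slope, 1 of 15434 genes had an adjusted p under 0.05 in edgeR (0.00648%), and it was no member. At an unadjusted p under 0.05 there were 775 genes (5.02%), 340 of them with a rising slope (2.2%), and Malat1, Miat and Snhg11 were among these. The 775 became 484 without control replicate 1 and 424 without control replicate 4. A fit of this kind had chosen Malat1, so nothing is read from these counts. With that term the group difference was -0.57 ± 0.10 for Malat1, -0.56 ± 0.13 for Snhg11, -0.35 ± 0.14 for Miat and -0.16 ± 0.26 for Neat1. Because the totals do not overlap, these differences rest on carrying 1 slope across depths at which only 1 group was sequenced. When every library was thinned at random to the smallest total, the differences were -0.20 for Malat1, -0.23 for Snhg11, -0.071 for Miat and -0.12 for Neat1. Thinning takes the same fraction from every gene of a library and leaves shares unchanged on average. It therefore cannot separate depth from exposure, and nothing is read from it on that question.

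**Figure D3:**
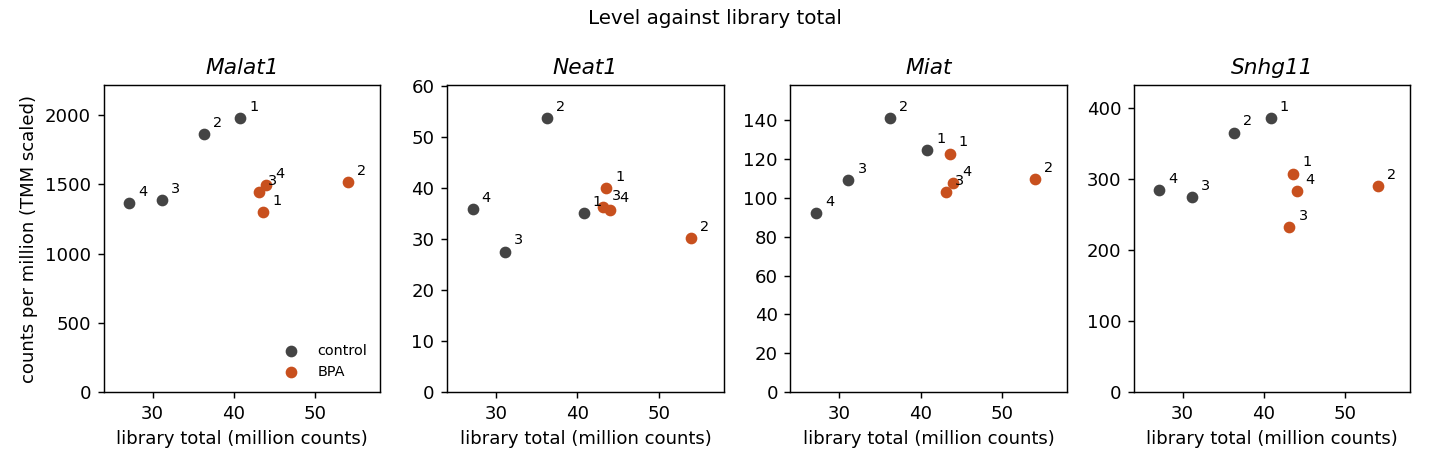
Level of each RNA in CPM (y axis, from 0) against library total (x axis, in units of 1e+06 counts), 1 point for each library, numbered by replicate. Malat1 and Snhg11 are higher in the 2 deeper controls (36280700 and 40793192 counts) than in the 2 shallower ones, and the BPA libraries, all deeper, lie below those 2.

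Genes for the proteins that work with these RNAs were compared in the same fit. Of 20 paraspeckle protein genes, 0 passed, 14 were higher and 6 lower in BPA mice, with a median log2 fold change of 0.041, where all tested genes had a median of 3.87e-05. Nono, a core paraspeckle protein, averaged 147 ± 3.70 CPM (controls) and 161 ± 6.78 CPM (BPA) (log2 fold change 0.13 ± 0.044), and Tial1, an RNA-binding protein, was at -0.10 ± 0.041. Of 20 nuclear speckle protein genes, 0 passed, 10 were higher and 10 lower (median -0.00085). Rnps1, a splicing activator, averaged 180 ± 28.7 CPM (controls) and 142 ± 10.8 CPM (BPA) (-0.33 ± 0.097), and Sart1, a spliceosome assembly factor, was at 0.13 ± 0.042. A list for end processing and stability of Malat1 and Neat1 had 16 genes tested, 0 passed and 13 higher (median 0.051). It included Rpp25, an RNase P subunit (0.17 ± 0.080), and Drosha, a ribonuclease (0.085 ± 0.049).

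Of 3 Miat partners, 0 passed. Qk, which encodes the RNA-binding protein QKI, averaged 501 ± 34.0 CPM (controls) and 454 ± 9.36 CPM (BPA) (-0.14 ± 0.051), and Celf3, another RNA-binding protein, was at 0.068 ± 0.072. Among 25 other noncoding RNAs tested, 0 passed, 7 were higher and 18 lower (median -0.064), and the 2 with the smallest p were Kcnq1ot1, an imprinted antisense RNA (-0.27 ± 0.11), and Rmst, near 1 CPM (-0.44 ± 0.20). The 21 snoRNA host genes other than Snhg11 (0 passed, 13 higher, 8 lower, median 0.020) included Snhg17 and Nop58 (0.067 ± 0.047). Of 24 messenger RNAs known for detained introns or nuclear retention, 0 passed, 4 were higher and 20 lower (median -0.038), with Ogt, the enzyme that attaches N-acetylglucosamine to proteins, at -0.11 ± 0.040 and Slc7a2, whose nuclear form is bound in paraspeckles, at -0.18 ± 0.072. Groups did not overlap for 2 of 20 paraspeckle genes (Nono, Tial1), 1 of 20 speckle genes (Sart1), 1 of 24 retained messenger RNAs (Ogt) and 0 genes of the end-processing, Miat partner, other noncoding RNA and snoRNA host lists, against 2.79% of all genes; those named were picked for the smallest p in their list. The adjusted p of every gene named from these lists was 0.955 or 0.957 (edgeR).

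**Figure D4:**
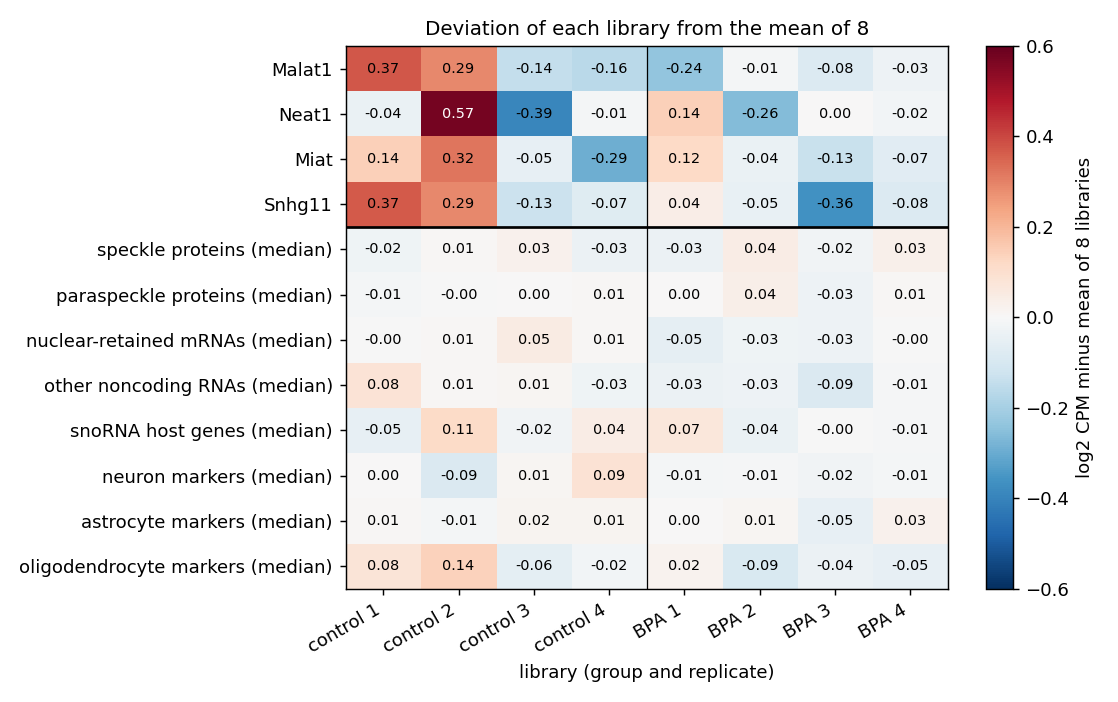
Log2 CPM minus the mean of 8 libraries (colour and printed value) for each RNA and, for 5 gene lists and 3 marker lists, the median over the list's tested genes; columns are the libraries. Malat1 reaches 0.37 and Snhg11 0.37 in control replicate 1, while the list medians drawn stay between -0.09 and 0.14, the highest being oligodendrocyte markers in control replicate 2. Some lists not drawn moved more: in control replicate 2 the median was 3.23 for choroid plexus, 0.866 for ependymal and 0.681 for meningeal markers.

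The cell type makeup of the samples was checked through markers. All 10 hippocampal neuron markers were tested, and their summed level was 5167 to 5947 CPM in controls and 5429 to 5864 CPM in BPA mice. The sum of 10 oligodendrocyte markers was highest in control replicates 1 and 2, at 2558 and 2563 CPM, against 2301 to 2322 CPM in the other controls and 2262 to 2387 CPM in BPA mice, with no marker at 0. Control replicates 1 and 2 were also the highest controls for Malat1 and Snhg11. In BPA mice the sum was highest in replicate 1, at 2387 CPM, where Malat1 was lowest and Snhg11 highest of that group. This control pattern was not particular to oligodendrocyte markers. Meningeal markers summed to 159, 218, 104 and 94.7 CPM in control replicates 1 to 4, and endothelial and pericyte markers to 376, 399, 354 and 374 CPM. In BPA mice the meningeal sum was highest in replicate 3, at 230 CPM, where Snhg11 was lowest. The part of these cells in the members' levels was not tested. Sums over 10 neuron markers were 11456 to 13229 CPM (controls) and 11785 to 12090 CPM (BPA). Those over 10 microglial markers were, in the same order, 220 to 235 and 217 to 238 CPM. For 10 astrocyte markers they were 9770 to 11331 and 8627 to 9796 CPM. Most of the astrocyte sum came from Slc1a2, which averaged 8272 ± 705 CPM (controls) and 6977 ± 522 CPM (BPA). Its log2 fold change was -0.25 ± 0.061 (SE), without overlap of the groups, and its adjusted p was 0.955 (edgeR). Among the 10 astrocyte markers, 5 were higher and 5 lower with BPA, with a median log2 fold change of 0.0019.

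Markers of tissue next to the hippocampus differed between libraries. The sum of 12 choroid plexus markers was 3129 CPM in control replicate 2, where Neat1 and Miat were highest, 207 to 305 CPM in the other controls, and 163 to 833 CPM in BPA mice, with no marker at 0. With a score of these markers as a covariate, the log2 fold change was 0.048 for Neat1, -0.028 for Miat, -0.17 for Malat1 and -0.22 for Snhg11. BPA replicate 3, which had the 833 CPM, was at 36.2 CPM of Neat1, between the other BPA values. Sums for 10 ependymal markers were 24.2 to 47.04 CPM in controls and 20.3 to 32.2 CPM in BPA mice, highest in control replicate 2 as well. All 12 choroid plexus and all 10 ependymal markers were lower in BPA mice (median log2 fold change -1.31 and -0.425), against 50% of all genes tested. Of 10 oligodendrocyte markers, 3 were higher and 7 lower (median -0.031). In these 3 lists 0 genes passed. The sums in controls and BPA mice were 94.7 to 218 and 102 to 230 CPM for 8 meningeal markers, 354 to 399 and 340 to 377 CPM for 10 endothelial and pericyte markers, and 272 to 295 and 275 to 284 CPM for 8 oligodendrocyte precursor markers. In the blood list, 4 haemoglobin genes were listed at 0 and Alas2 was at 1.83 to 2.51 CPM. The reason for these zeros was not tested, and no absence of blood is read from them. The choroid plexus markers stood highest in control replicate 2, with a median log2 deviation of 3.23, against 1.41 in BPA replicate 3. Their covariate cannot tell this tissue from other features of that control animal. The part of these tissues in the members' levels was not tested. Rn45s, the ribosomal RNA precursor, took 7.57%, 5.41%, 5.79% and 7.54% of counts in control replicates 1 to 4. In BPA replicates 1 to 4 it took 5.15%, 6.33%, 6.30% and 7.53%. Control replicates 1 and 2, both high in Malat1 and Snhg11, thus differed in Rn45s. Miat and Neat1 were highest of each group where Rn45s was lowest, in control replicate 2 and BPA replicate 1. The relation of Rn45s to the members was not tested.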

How the data were processed

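RNA of 4 control and 4 BPA hippocampi was analysed. The authors deposited whole-number read counts per gene symbol without normalization. The submitters' processing notes name Trimmomatic 0.32, STAR 2.3.0e, featureCounts 1.5.0, DESeq2 and mm10, and per the file headers genes follow refGene. Libraries held 27135071 to 54013884 counts, and replicate pairs of a group differed beyond sampling noise (chi-square per degree of freedom 10.2 to 24.8 over 12 pairs).

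Genes were filtered with filterByExpr (15434 of 24527 kept, all 4 members among them), scaled by TMM and compared in R 4.3.3 with edgeR 4.0.16 (quasi-likelihood test, two-sided) on group alone and Benjamini-Hochberg adjustment at 0.05 over all genes. DESeq2 1.42.0 and limma-voom 3.58.1 were alternatives. The edgeR steps were also run on simulated counts with known group changes. That simulation held no depth effect, outlying animal or covariate, so nothing is read from it for the members. SE was derived from the test statistic, whose variance estimate in edgeR also draws on other genes. Positions and sequences come from GENCODE M21 (GRCm38), the same build. Intervals of shares cover counting error only.

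Members and lists were chosen with earlier results of these data known. Named are the 4 members, the 2 genes of each partner list with the smallest p as none passed, the 5 genes most correlated with each member in log2 CPM (prior count 2), and the nearest annotated gene with reads on each side; some of these genes are not reported here. Replicate numbers were shared between groups, but same-numbered libraries did not deviate together.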

Additional observations from a re-analysis of the deposited data

How the results depend on the processing

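Over 22 other settings, Malat1 and Snhg11 were lower in BPA mice in all 22, Neat1 in 20 and Miat in 21. Neat1 was at 0.11 without control replicate 2 and at 0.048 with the choroid plexus score, and Miat at 0.026 without control replicate 2. Leaving out 1 library gave -0.28 to -0.097 for Malat1, -0.23 to 0.11 for Neat1, -0.18 to 0.026 for Miat and -0.31 to -0.15 for Snhg11. Scaling moved Malat1 only between -0.20 and -0.19.

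For all genes, edgeR called 0 in each of its settings and limma-voom 0, DESeq2 called 7 without the filter on low counts, and 3 when log2 library total entered its model, a setting added after seeing the data. Malat1 was 1 of these 3, at -0.57, which is the result that singled it out. The slope on library total called 1 gene, 6 in edgeR without the filter on low counts, 21 in DESeq2 without that filter, and 0 to 1 on leaving out 1 library, with 0 without control replicate 1, control replicate 4 or BPA replicate 2; the cause was not tested.

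With the replicate number as a block, the log2 fold changes were -0.18 for Malat1, -0.069 for Neat1, -0.064 for Miat and -0.23 for Snhg11, and 0 genes were called. The numbers did not pair the libraries: deviations of same-numbered libraries correlated at -0.123, -0.372, -0.295 and 0.0702. Leaving Rn45s out of the totals raised the mean share of Malat1 from 0.155% to 0.165%, less than its SD.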
